A study of Mus musculus with 8 samples.

Results

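This section describes how gene expression in mouse dorsal root ganglia differed between 3 days (3d) and 1 day (1d) after carrageenan injection, the first 2 time points of a series that also holds untreated mice (0d) and mice at 30 days (30d). Dorsal root ganglia hold the cell bodies of the sensory neurons of the limbs and trunk, together with satellite glia, Schwann cells, macrophages, vessels and connective tissue. Carrageenan, a seaweed polysaccharide, causes local inflammation where it is given, and the study followed how the ganglia change as mechanical hypersensitivity sets in and resolves. The comparison used 4 of the 8 libraries of the series and all genes with at least 1 CPM (count per 1e6 counts of the library) in 2 or more of the 8 libraries, which were 14948 of 24421 genes.

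The mice were wild-type C57BL/6J males, 8 weeks old by the design text (the methods give a wider range of ages). In the 1d, 3d and 30d groups, 20 µl of 1% carrageenan had been injected under the skin of the left hind paw. The 0d mice were naïve and untreated, and no group received an injection of vehicle. Ganglia L3 to L5 were dissected after perfusion with RNAlater, and each time point had 2 libraries, each made of RNA pooled from 2 to 3 mice. The replicates are therefore pools, and p-values measure the spread between pools. DRG neurons are the cell type in the labels, but whole ganglia were extracted. The 20 markers of sensory neurons had a summed level between 28062 and 28862 CPM in the 4 libraries, and markers of glia, macrophages, fibroblasts and blood were present too. In such bulk samples, fewer cells of a type and less RNA per cell cannot be told apart.

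Totals were 46119505 and 44123208 counts at 1d and 65712857 and 73580338 at 3d. As a check for libraries deposited more than once, the chi-square of the counts of the replicates over its degrees of freedom came to 8.72 for 1d, 7.29 for 3d, 15.6 for 0d and 25.8 for 30d, and the 2 libraries at 30d were the least alike of the 4 pairs. All 8 libraries shared one estimate of the spread, with a common biological coefficient of variation of 8.30%. The 30d and 0d libraries therefore bear on which genes passed the test between 1d and 3d.

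Most of the genes that fell between the time points compared belong to lists of the interferon system or of MHC presentation. Interferons bind receptors on the cell surface and, through JAK kinases, activate STAT and IRF transcription factors, which bind interferon-stimulated response elements (ISRE) in the promoters of interferon-stimulated genes. These genes encode proteins that block the replication of viruses, the ubiquitin-like modifier ISG15 and its conjugating enzymes, GTPases that attack the vacuoles of intracellular microbes, and the machinery that presents peptides on MHC molecules. The glucocorticoid receptor, by contrast, is a hormone-activated factor whose target genes restrain inflammation and adjust metabolism and the local clock. A gene of the glucocorticoid-responsive list and a gene of the heat shock and chaperone list were among the genes that rose.

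Between 1d and 3d, 50 genes were differentially expressed at an adjusted p under 0.05 in edgeR's quasi-likelihood test with Benjamini-Hochberg adjustment. Of these, 46 fell, 0.308% of the genes tested, and 4 rose, 0.0268% of the genes tested. Of the 46 genes that fell, 42 belong to the lists of antiviral effectors, ISG15 conjugation, interferon-induced GTPases, interferon signalling factors, or MHC class I or II presentation. Their 3d level was a median of 51.2% of the 1d level, with the lowest share, 18.0%, in Pydc3. The median log2 fold change of the 46 genes was -0.97, with 23 genes below -1, while the 4 genes that rose had log2 fold changes between 0.29 and 0.65. Over all genes tested the median was -0.00 and 90% of the genes lay between -0.24 and 0.26. In all 50 genes the 2 libraries at 3d lay on one side of the 2 libraries at 1d, which was so in the lower direction for 19.2% of all genes and in the higher direction for 19.3%. The number of genes with an unadjusted p under 0.05 was nearly the same in both directions, 351 lower and 357 higher.

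These counts rest on few libraries. In 43 of the 46 genes that fell, 1d replicate 1 lay above 1d replicate 2, by a median ratio of 1.15 and at most 1.68, while over all genes tested it lay above in 51.1%. Without 1d replicate 1, 8 genes passed the test as lower, and without 1d replicate 2 it was 37. Without 3d replicate 1 or 3d replicate 2, the counts were 3 and 6, and no gene passed as higher in edgeR's test although 163 and 164 genes were higher at an unadjusted p under 0.05. Isg15, Ifit3 and Ifit3b passed without each of the 4 libraries in turn. All 46 genes kept their direction without each of these libraries, which follows from both 3d libraries lying below both 1d libraries in each gene. They also kept it in those of the 18 other settings in which they were tested. Some of these settings changed only the threshold and could not alter a direction. The number of genes that rose depended on the libraries outside the comparison. It was 15 without 0d replicate 1, 14 without 0d replicate 2, 31 without 30d replicate 1, 34 without 30d replicate 2, and 139, beside 118 lower, in a fit of only the 1d and 3d libraries.

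**Figure D1:**
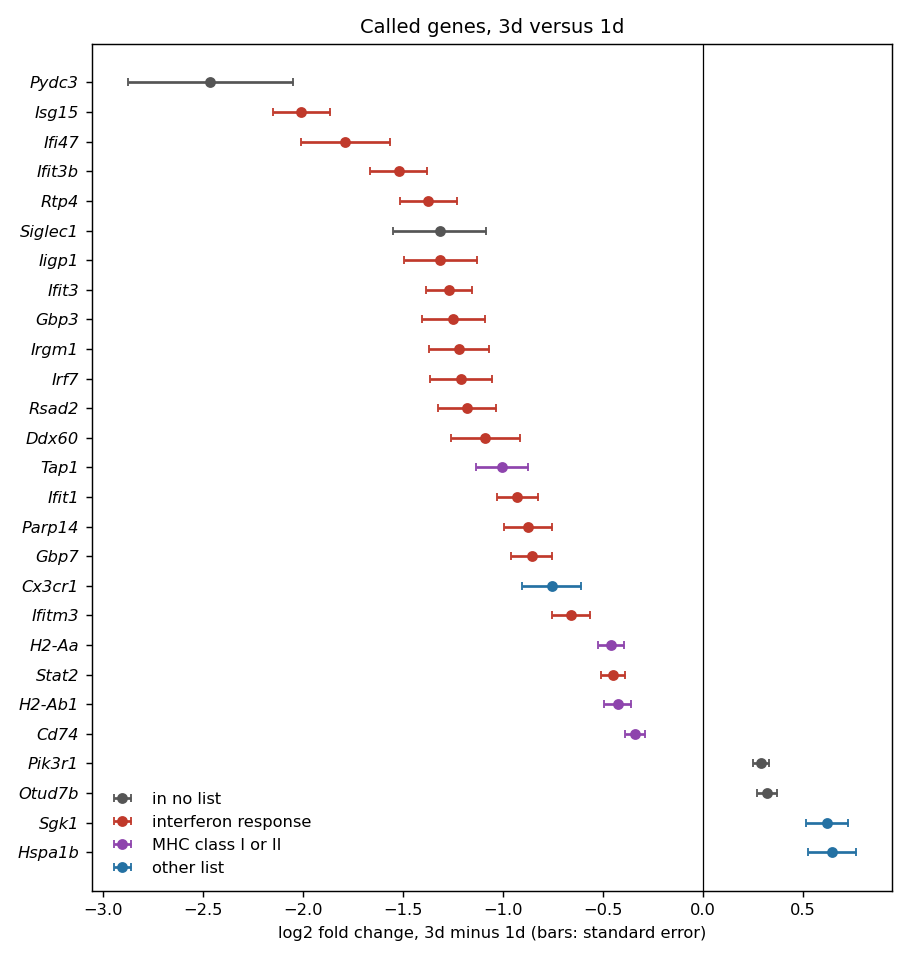
Log2 fold change, 3d minus 1d, of 27 genes that passed the test: 23 lower genes described in the text, most of them among the lower genes with the smallest p, and the 4 higher genes. Points are estimates and bars are standard errors from edgeR; Isg15 lies at -2.01 and Hspa1b at 0.65, and colours mark the kind of list.

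The smallest p of all genes tested was that of Isg15. This gene, which encodes the ubiquitin-like protein that is attached to other proteins after interferon treatment, had 17.7 and 16.2 CPM in the 2 libraries at 1d and 4.04 and 4.40 CPM at 3d. The untreated ganglia had 4.14 and 4.10 CPM, so both 3d libraries lay at the untreated level and far below 1d. The gene lies on the minus strand of chromosome 4, from 156199424 to 156200818 of mm10. The mean of 2 libraries was 17.0 ± 1.09 CPM (SD) on day 1 against 4.22 ± 0.259 CPM on day 3, and the log2 fold change of -2.01 had a standard error of 0.14 and an edgeR adjusted p of 1.65e-05. Usp18, the protease that removes ISG15 and dampens receptor signalling, had 11.2 and 10.5 CPM at 1d and 5.09 and 4.85 CPM at 3d. Its log2 fold change was -1.13. Lgals3bp, a secreted glycoprotein induced by interferon, fell by 0.30 on the log2 scale from a much higher level, with 104 and 102 CPM at 1d and 88.3 and 78.6 CPM at 3d. Of the 6 members tested, these 3 passed the test. The activating enzyme Uba7, the ligase Herc6 and the conjugating enzyme Ube2l6 did not, with log2 fold changes of -0.90, -0.78 and -0.28. In all 6 genes both 3d libraries lay below both 1d libraries, against 19.2% of all genes tested.

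Promoter sequences are shown for 6 of the genes that fell, 5 with the letters of the ISRE core close to the start and Irf7 without them. Each run gives the 120 bases before the transcription start in RefSeq on GRCm38.p6, the assembly behind mm10, read 5′ to 3′ on the strand of the gene, and capitals mark every match to the ISRE core GAAANNGAA on either strand.
Isg15, chr4:156200819-156200938, minus strand: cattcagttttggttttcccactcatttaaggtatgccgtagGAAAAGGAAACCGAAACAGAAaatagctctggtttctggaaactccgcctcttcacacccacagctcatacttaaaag
Ifit1, chr19:34640769-34640888, plus strand: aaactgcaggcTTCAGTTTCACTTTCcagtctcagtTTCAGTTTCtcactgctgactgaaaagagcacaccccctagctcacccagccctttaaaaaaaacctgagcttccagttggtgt
Rsad2, chr12:26456453-26456572, minus strand: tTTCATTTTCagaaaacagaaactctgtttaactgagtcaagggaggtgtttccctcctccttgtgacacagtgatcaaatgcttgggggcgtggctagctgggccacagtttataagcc
Gbp7, chr3:142530216-142530335, plus strand: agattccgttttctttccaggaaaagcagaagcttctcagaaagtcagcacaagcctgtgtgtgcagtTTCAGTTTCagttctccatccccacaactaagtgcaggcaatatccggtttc
Irgm1, chr11:48871421-48871540, minus strand: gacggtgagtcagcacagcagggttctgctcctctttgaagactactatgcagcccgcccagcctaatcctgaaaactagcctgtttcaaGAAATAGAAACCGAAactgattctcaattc
Irf7, chr7:141266425-141266544, minus strand: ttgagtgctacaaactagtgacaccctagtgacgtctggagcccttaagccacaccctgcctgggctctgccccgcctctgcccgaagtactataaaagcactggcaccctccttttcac

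The 3 overlapping matches of Isg15 begin 78, 72 and 66 bases before the start. The table of promoters, which runs from 250 bases before to 50 bases after each start, held 31 of the 46 genes that fell, and 17 of these (54.8%) had at least one match, with overlapping matches allowed. Among all 27025 genes with a promoter entry, 9.76% had one, and of the 11196 tested genes found in it 8.49%. Irf7 is among the genes that fell without a match in this window. The glucocorticoid element core ACANNNTGT was found in 3 of the 31 genes that fell (9.68%), against 7.90% of all genes in the table and 5.26% of those tested. The E-box CACGTG was in 0 of 31, against 8.09% and 11.2%, and the D-box TTATGTAA in 0 of 31, against 1.11% and 0.697%. Of the 4 genes that rose 3 were in the table, and Sgk1 held matches to the ISRE core, the glucocorticoid element core and the E-box, spread over the windows of 3 different start sites. A match is a description of the letters and not a binding site.

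Antiviral effectors formed the largest group. Of 55 genes in the list 51 were tested, 20 fell and none rose, and their median log2 fold change was -0.70. Both 3d libraries lay below both 1d libraries in 46 of the 51 (90.2%), against 19.2% of all genes tested. Against 0d, the median was 0.91 at 1d and 0.18 at 3d; these comparisons share libraries with the one described here.

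The Ifit genes encode proteins with tetratricopeptide repeats, and IFIT1 binds viral RNA. Ifit1 (chromosome 19, 34640889 to 34650009, plus strand) had 82.5 and 62.6 CPM at 1d and 37.96 and 38.3 CPM at 3d, against 22.8 and 22.3 CPM at 0d. It fell by 0.93 on the log2 scale (standard error 0.10, edgeR adjusted p = 0.00232), and its 3d libraries lay between those of 1d and 0d. Ifit3 had 48.9 and 43.2 CPM at 1d and 19.2 and 19.0 CPM at 3d, and Ifit3b had 19.2 and 17.6 CPM followed by 6.48 and 6.32 CPM. These neighbours share 51.2% and 44.5% of their 50-base words, so their separate counts are uncertain, but both fell, by 1.27 and 1.52. Ifit2 fell short of the threshold, with 48.9 and 47.2 CPM at 1d and 34.6 and 39.8 CPM at 3d (log2 fold change -0.37, edgeR adjusted p = 0.0553).

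Rsad2, which encodes viperin, an enzyme that makes a chain-terminating nucleotide, had 25.2 and 19.4 CPM at 1d and 9.56 and 10.1 CPM at 3d, against 7.42 and 9.47 CPM at 0d. It fell by 1.18 (standard error 0.15), with an edgeR adjusted p of 0.00232. Cmpk2, its neighbour in the genome and a nucleotide kinase, fell by 0.45 from 50.3 and 46.6 to 34.9 and 35.8 CPM. Mx1, a dynamin-like GTPase, fell by 1.97 but was low throughout, with 4.16 and 2.48 CPM at 1d and 0.871 and 0.820 CPM at 3d. Rtp4, a chaperone of G protein-coupled receptors that interferon induces, had 17.4 and 14.6 CPM at 1d and 5.79 and 6.54 CPM at 3d, and it fell by 1.37 (standard error 0.14), with an edgeR adjusted p of 0.000559.

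Some members of the OAS family, but not all, are enzymes that make the messenger that activates RNase L. Oasl2 had 102 and 87.6 CPM at 1d and 73.9 and 73.7 CPM at 3d, while 0d had 44.7 and 48.4 CPM, so its 3d libraries still stood well above the untreated ones. It fell by 0.36 from 1d to 3d (standard error 0.07), and at 3d its log2 fold change against 0d was 0.66. Oasl1 fell by 1.25, from 5.11 and 4.57 to 2.31 and 1.76 CPM. Oas1a, Oas1b, Oas2 and Oas3 were at most 4.22 CPM in any 1d library and did not pass the test, with log2 fold changes between -1.80 and -1.02.

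Several sensors of foreign nucleic acid fell. Ifih1 and Ddx58, which encode the RNA sensors MDA5 and RIG-I, fell by 0.86 and 0.43, and the helicase Ddx60 fell by 1.09. Ddx58 had 53.5 and 49.5 CPM at 1d and 37.9 and 38.7 CPM at 3d, between the 1d libraries and the 29.5 and 32.4 CPM of 0d. Ifih1 had 20.0 and 17.8 CPM at 1d and 9.98 and 10.8 CPM at 3d, which overlapped the 9.95 and 10.8 CPM of 0d. Zbp1, a sensor of left-handed nucleic acid, fell by 1.56, and Dhx58, the third member of the RIG-I family, had a log2 fold change of -0.84 and did not pass. The ADP-ribosyltransferases Parp9, Parp12 and Parp14 fell by 0.70, 0.63 and 0.87, of which Parp9 shares 9.37% of its exon bases with Dtx3l. The membrane proteins Ifitm3 and Bst2, which block virus entry and release, fell by 0.66 and 0.89, whereas Ifitm1 and Ifitm2, members of the same family, had log2 fold changes of 0.04 each. Trim30a and Phf11d fell by 1.03 and 2.06.

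**Figure D2:**
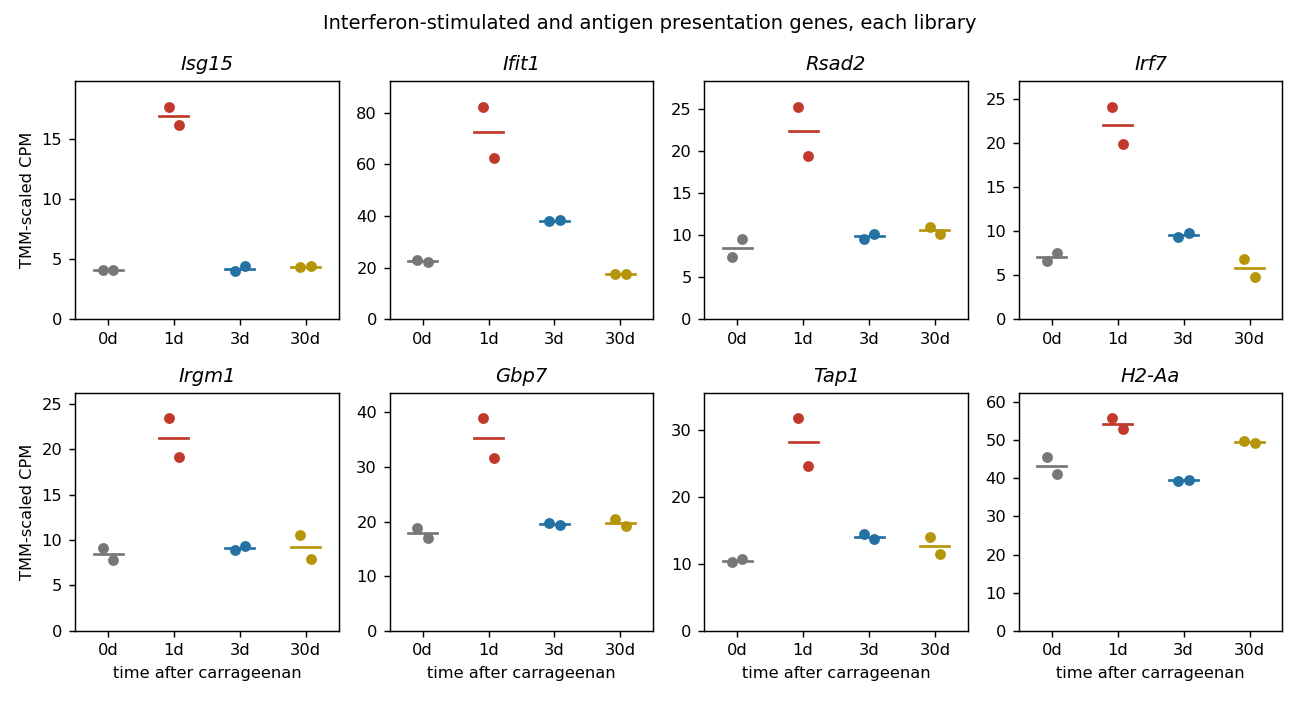
TMM-scaled CPM of 8 genes in each of the 8 libraries, by time after carrageenan (points: libraries; lines: mean of 2 libraries). In each panel both 1d libraries lie above both 3d libraries, and the 3d libraries of Isg15 (4.04 and 4.40 CPM) lie at the level of 0d while those of Ifit1 (37.96 and 38.3 CPM) stay above it.

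The interferon-induced GTPases showed the largest median difference of the 35 lists. Of 17 genes 14 were tested, 7 fell and none rose, and the median log2 fold change was -1.28. In all 14, against 19.2% of all genes tested, both 3d libraries lay below both 1d libraries. Their summed level was 318 and 233 CPM at 1d and 122 and 120 CPM at 3d, against 117 and 108 CPM at 0d, so the sum at 3d lay close to the untreated level. The 2 libraries at 1d differed more from each other than those at 3d.

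The immunity-related GTPases act on membranes of vacuoles that hold microbes. Irgm1 (chromosome 11, 48865249 to 48871346, minus strand) had 23.4 and 19.2 CPM at 1d and 8.90 and 9.38 CPM at 3d, against 9.08 and 7.76 CPM at 0d. It fell by 1.22 (standard error 0.15, edgeR adjusted p = 0.00232). Ifi47 fell by 1.79 from 10.6 and 9.35 to 3.30 and 2.49 CPM, and both 3d libraries lay below the 4.08 and 3.61 CPM of 0d. Iigp1 fell by 1.31. Irgm2 and Igtp had log2 fold changes of -1.08 and -0.98 and did not pass, with edgeR adjusted p of 0.310 and 0.0843.

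The guanylate-binding proteins coat such vacuoles and cytosolic bacteria. Gbp7 (chromosome 3, 142530336 to 142550151, plus strand) had 38.9 and 31.6 CPM at 1d, 19.7 and 19.3 CPM at 3d and 18.7 and 17.0 CPM at 0d. It fell by 0.86 (standard error 0.10, edgeR adjusted p = 0.00226). Gbp3, Gbp4 and Gbp5 fell by 1.25, 1.56 and 1.26. Gbp2 and Gbp6 had log2 fold changes of -1.50 and -1.72 but did not pass the test. Gbp2 had 43.2 and 23.5 CPM at 1d, a wide gap between the 2 pools, and 11.7 and 11.9 CPM at 3d. Gbp6 shares 59.7% of its 50-base words with other genes, and its count is uncertain.

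Among receptors, kinases and transcription factors of the pathway, 4 of 19 genes tested fell, among them Irf7, Stat2 and Irf1, and none rose, with a median log2 fold change of -0.13. Irf7, the factor that amplifies interferon production, had 24.2 and 20.0 CPM at 1d and 9.33 and 9.78 CPM at 3d, against 6.67 and 7.501 CPM at 0d. It fell by 1.21 (standard error 0.16, edgeR adjusted p = 0.00328). Stat2, a subunit of the factor that binds the ISRE, had 127 and 115 CPM at 1d and 89.3 and 88.3 CPM at 3d and fell by 0.45 (standard error 0.06). Irf1, which drives genes responding to interferon gamma, had 26.5 and 23.6 CPM at 1d and 16.8 and 15.6 CPM at 3d and fell by 0.63. Irf9, the DNA-binding partner of STAT2, had 37.7 and 33.9 CPM at 1d and 23.3 and 21.8 CPM at 3d. Its log2 fold change was -0.67, but it did not pass (edgeR adjusted p = 0.305). The type I receptor subunits Ifnar1 and Ifnar2 had log2 fold changes of 0.00 and -0.00, the type II subunits Ifngr1 and Ifngr2 -0.10 and -0.03, and the kinases Jak1, Jak2 and Tyk2 0.03, -0.13 and -0.13. Their standard errors were between 0.04 and 0.10. The feedback inhibitors Socs1 and Socs3 had log2 fold changes of -0.42 and 0.39 and did not pass.

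In MHC class I presentation, Tap1, Tap2, Psmb9 and H2-T23 fell, 4 of 21 genes tested, and none rose, with a median of -0.25. Both 3d libraries lay below both 1d libraries in 14 genes (66.7%), against 19.2% of all genes tested. Tap1 and Tap2, the 2 chains of the peptide transporter, fell, with log2 fold changes of -1.004 and -0.47. Tap1 (chromosome 17, 34187556 to 34197225, plus strand) had 31.7 and 24.6 CPM at 1d and 14.5 and 13.6 CPM at 3d, against 10.3 and 10.7 CPM at 0d. Psmb9, a catalytic subunit of the immunoproteasome, fell by 1.08 from 6.84 and 8.49 to 3.46 and 3.79 CPM. Psmb8, another such subunit, and Tapbp, which tethers heavy chains to the transporter, had log2 fold changes of -0.55 and -0.21 and did not pass. The nonclassical chain H2-T23 fell by 0.85 and shares 16.0% of its 50-base words with other genes. The classical chains H2-K1 and H2-D1 and the light chain B2m had log2 fold changes of -0.05, 0.10 and 0.05. For B2m the 1d libraries were 251 and 189 CPM and the 3d libraries 229 and 226 CPM, which lay between them. Nlrc5, the transactivator of these genes, had 13.96 and 8.17 CPM at 1d and 5.15 and 5.91 CPM at 3d and did not pass (log2 fold change -1.001, standard error 0.39).

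Of 8 MHC class II genes tested, which mark macrophages and other antigen-presenting cells, 4 fell and none rose, with a median log2 fold change of -0.35. H2-Aa and H2-Ab1 encode the 2 chains of I-A and fell by 0.46 and 0.43. H2-Aa had 55.8 and 53.0 CPM at 1d and 39.4 and 39.6 CPM at 3d (standard error of the log2 fold change 0.07, edgeR adjusted p = 0.00533). Its 3d libraries lay below the 45.5 and 41.1 CPM of 0d. H2-Eb1 fell by 0.37, and Cd74, the invariant chain and the most abundant of these genes, fell by 0.34 from 163 and 155 to 124 and 127 CPM. The peptide loaders H2-DMa and H2-DMb1 had log2 fold changes of 0.03 and -0.07, and Ciita, the master regulator of the class, -0.45 at 4.76 and 3.48 CPM at 1d.

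The 16 macrophage markers measured beside these genes went in both directions, 7 below 0 and 9 above 0. Their summed level was 173 and 180 CPM at 1d and 184 and 186 CPM at 3d, and their median log2 fold change was 0.03. Lyz2 had 49.4 and 54.0 CPM of this sum at 1d and 61.3 and 63.0 CPM at 3d. Aif1 had a log2 fold change of -0.69 (standard error 0.43) at under 2 CPM, and neither gene passed. The part of macrophages in the fall of the class II genes was not tested. Csf1r, the receptor that macrophages need to survive, had 28.5 and 30.2 CPM at 1d and 30.2 and 29.3 CPM at 3d. One member, Cx3cr1, the fractalkine receptor of resident macrophages, fell. It had 8.16 and 9.90 CPM at 1d and 5.63 and 5.06 CPM at 3d, against 10.8 and 10.9 CPM at 0d. From 1d to 3d it fell by 0.76 (standard error 0.15), with an edgeR adjusted p of 0.0440, and both 3d libraries were the lowest of the 8. The call was lost in 5 of the 18 other settings. Cd163, a scavenger receptor, lay in the other direction with 6.34 and 4.53 CPM at 1d and 10.7 and 8.75 CPM at 3d (log2 fold change 0.84, standard error 0.27) and did not pass. Of 15 markers of T, B and NK cells only 3 were tested, and over the 12 in the table the sum, scaled by library totals, was 7.74 and 6.50 CPM at 1d and 6.53 and 6.21 CPM at 3d.

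Besides Cx3cr1, Siglec1 and Pydc3 fell without belonging to an interferon or MHC list. Siglec1, which encodes a sialic acid-binding receptor of macrophages, had 6.86 and 5.32 CPM at 1d and 2.43 and 2.46 CPM at 3d, against 2.85 and 2.02 CPM at 0d. It fell by 1.32. Pydc3, a gene with a pyrin domain, had 1.73 and 1.62 CPM at 1d and 0.260 and 0.342 CPM at 3d and fell by 2.46 (standard error 0.41). Its 3d libraries lay below the 0.812 and 0.748 CPM of 0d, and so did both 30d libraries, at 0.406 and 0.457 CPM.

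Other inflammatory classes held no gene that passed the test. Among 26 chemokines, interleukins and NF-kB genes the median log2 fold change was -0.07. Cxcl10 and Cxcl9, chemokines induced by interferon gamma, had log2 fold changes of -1.56 and -1.83 (standard errors 0.41 and 0.67). Cxcl10 had 9.65 and 5.10 CPM at 1d and 2.58 and 2.41 CPM at 3d, with a wide gap between the 2 pools at 1d. Ccl2, the chemokine that attracts monocytes, had 1.43 and 1.68 CPM at 1d and 1.65 and 1.72 CPM at 3d. Among 13 complement genes the subunits of C1q had log2 fold changes of -0.26 for C1qa, -0.36 for C1qb and -0.30 for C1qc. In each, both 3d libraries lay below both 1d libraries. This was so in 5 of the 13 complement genes (38.5%), against 19.2% of all genes tested.

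**Figure D3:**
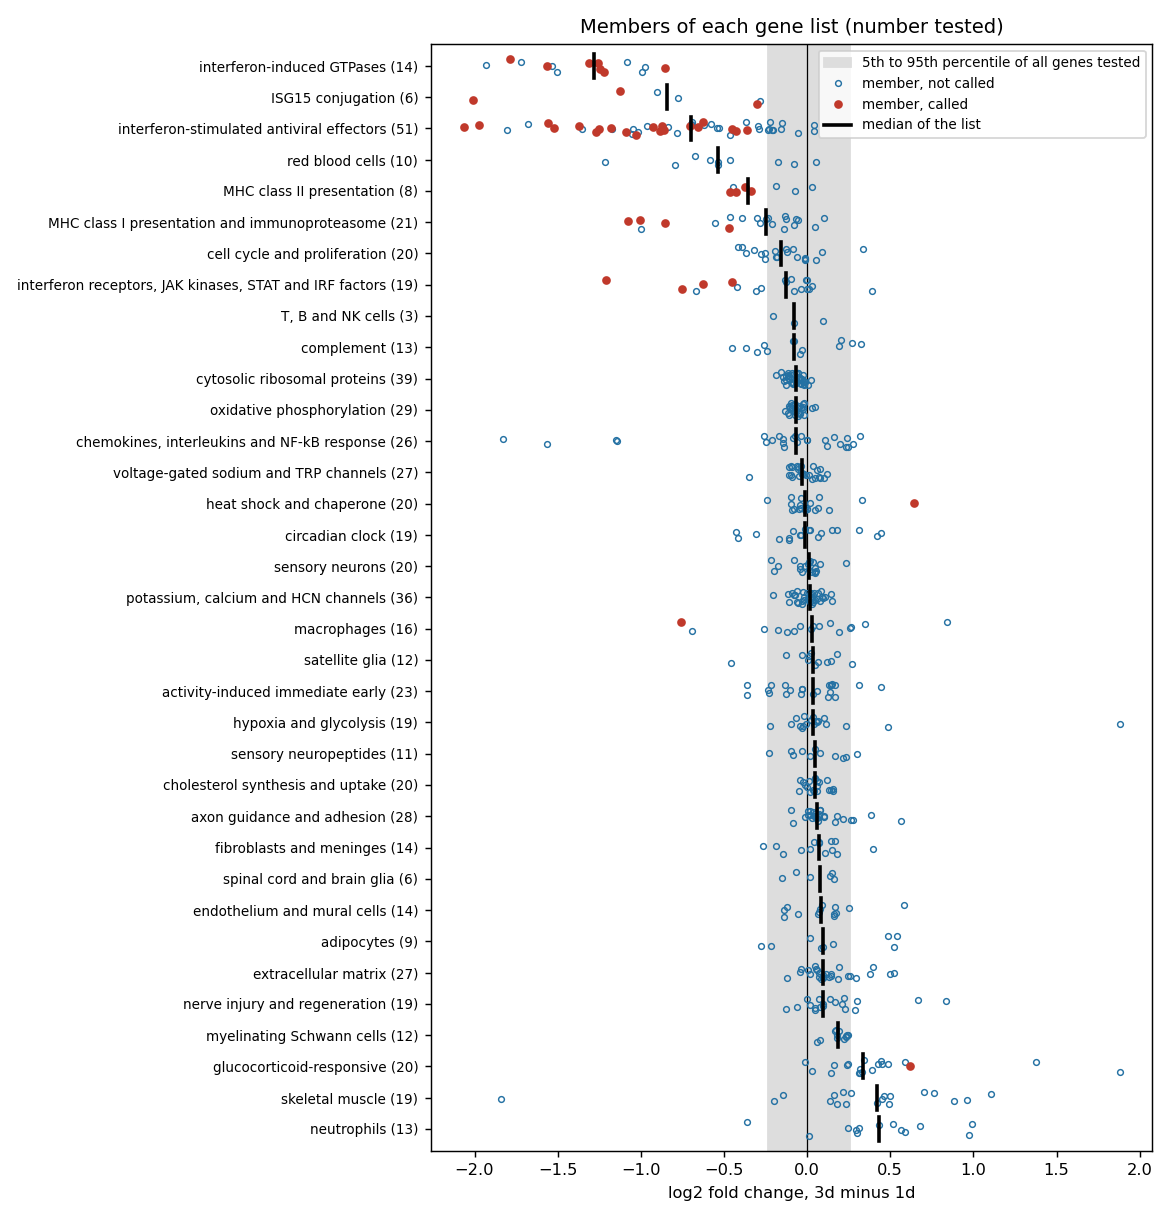
Log2 fold change, 3d minus 1d, of every tested member of the 35 gene lists, with the number tested in brackets (filled: passed the test; open: did not pass; black bars: list medians; grey band: 5th to 95th percentile of all genes tested). The medians of the interferon-induced GTPases (-1.28), ISG15 conjugation (-0.84) and antiviral effectors (-0.70) are among those outside the band on the left, and those of neutrophils (0.43), skeletal muscle (0.42) and glucocorticoid-responsive genes (0.33) on the right.

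Of the genes that rose, Sgk1 belongs to the list of glucocorticoid-responsive genes. Sgk1, a kinase that regulates ion channels and is induced through the glucocorticoid receptor, had 27.3 and 33.9 CPM at 1d and 45.6 and 48.3 CPM at 3d, against 31.5 and 26.5 CPM at 0d and 28.9 and 27.6 CPM at 30d. Both 3d libraries were above the other 6. It lies on the plus strand of chromosome 10, from 21882184 to 21999902 of mm10. It rose by 0.62 on the log2 scale (standard error 0.10), with an edgeR adjusted p of 0.0248, and it passed in 16 of the 18 other settings, but not with 30d left out (edgeR adjusted p = 0.0586). It passed without 1d replicate 2 but not without any other library of 1d or 3d, with edgeR adjusted p of 0.255 without 1d replicate 1, 0.252 without 3d replicate 1 and 0.459 without 3d replicate 2. None of the 4 genes that rose passed without 1d replicate 1.

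The 20 genes of the list lay mostly on the higher side. In 19 the log2 fold change was above 0, against 49.5% of all genes tested, and the median was 0.33. In 18 (90.0%) both 3d libraries lay above both 1d libraries, against 19.3% of all genes tested. Sgk1 alone passed the adjusted test, and 11 members were higher at an unadjusted p under 0.05. The summed level was 708.5 and 765 CPM at 1d and 908 and 913 CPM at 3d, against 712 and 678 CPM at 0d and 783 and 673 CPM at 30d. In a fit of only the 1d and 3d libraries, 10 members passed as higher, of 139 higher genes among all 14948 tested. It was 5 of 31 with the 30d libraries left out and 6 of 39 with DESeq2.

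Single members show how the 30d libraries enter. Zbtb16, a transcription factor induced by glucocorticoids, had 4.74 and 3.64 CPM at 1d and 10.7 and 11.03 CPM at 3d. At 30d it had 11.7 CPM in one library and 4.39 in the other, and its log2 fold change of 1.38 from 1d to 3d had a standard error of 0.47 (edgeR adjusted p = 0.954). With 30d left out its adjusted p was 0.000526. Hif3a, a hypoxia-inducible factor that also stands in the hypoxia list, had 2.08 and 1.93 CPM at 1d and 7.49 and 7.29 CPM at 3d, and its log2 fold change of 1.88 was the highest of all genes tested, with a standard error of 0.37 (edgeR adjusted p = 0.0849). At 30d it had 4.95 and 1.92 CPM. The hypoxia list of 19 genes had a median of 0.04, with log2 fold changes of 0.05 and 0.04 for the factors Hif1a and Epas1. Pfkfb3, a regulator of glycolysis in this list, had 112 CPM in both 1d libraries and 130 and 133 CPM at 3d (log2 fold change 0.23, standard error 0.05, edgeR adjusted p = 0.0992). None of the list passed with all 8 libraries, and 2 members were called higher with DESeq2, with 30d left out and with only the 1d and 3d libraries.

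Fkbp5, a co-chaperone that limits the receptor, had 55.5 and 62.8 CPM at 1d and 78.4 and 80.3 CPM at 3d (log2 fold change 0.42, standard error 0.12). Tsc22d3, which encodes the anti-inflammatory protein GILZ, had 156 and 181 CPM at 1d and 211 and 213 CPM at 3d (0.33, standard error 0.06, edgeR adjusted p = 0.0553). Klf9, a Krüppel-like factor, had 87.4 and 96.0 CPM at 1d and 114 and 113 CPM at 3d (0.31, standard error 0.08). None of these 3 passed. The receptor gene Nr3c1 itself had a log2 fold change of 0.03, with 58.3 and 58.4 CPM at 1d and 57.6 and 61.6 CPM at 3d, which overlapped.

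The other 3 genes that rose were Pik3r1, Otud7b and Hspa1b. Pik3r1, the regulatory subunit of phosphoinositide 3-kinase, had 184 and 194 CPM at 1d and 230 and 231 CPM at 3d, and 0d and 30d lay between, with 201, 204, 204 and 205 CPM. It rose by 0.29 (standard error 0.04), with an edgeR adjusted p of 0.00533. Otud7b, a deubiquitinase that restrains NF-kB signalling, had 81.4 and 78.9 CPM at 1d and 98.8 and 101 CPM at 3d, above all other libraries, and a log2 fold change of 0.32. Hspa1b, an inducible heat shock protein, had 10.1 and 9.83 CPM at 1d and 15.8 and 15.3 CPM at 3d, but its 1d libraries also lay below the 12.4 and 14.5 CPM of 0d. Its log2 fold change was 0.65. It shares 62.3% of its 50-base words with Hspa1a, whose log2 fold change was 0.33, so the share of each is uncertain. The other chaperones lay close to 0, with a list median of -0.01 over 20 genes.

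**Figure D4:**
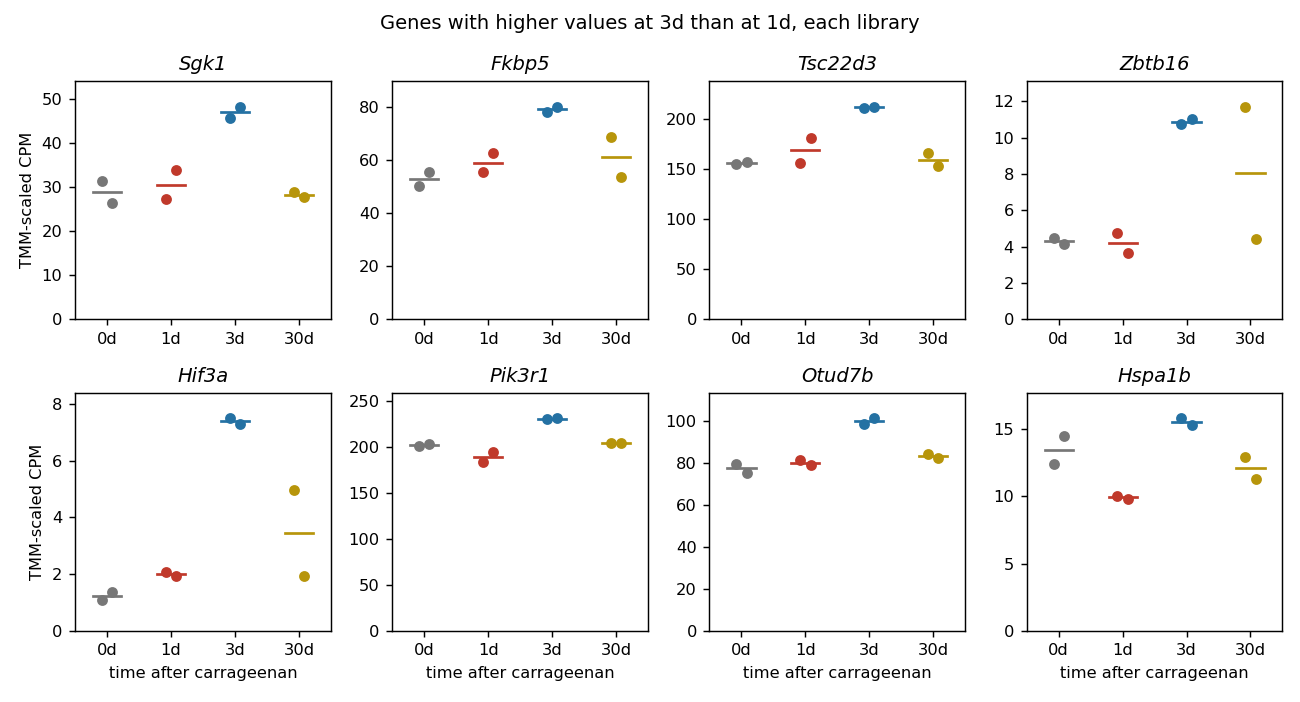
TMM-scaled CPM of 8 genes with higher values at 3d than at 1d in each of the 8 libraries (points: libraries; lines: mean of 2 libraries). Sgk1, Pik3r1, Otud7b and Hspa1b passed the test and the other 4 did not; Zbtb16 has 11.7 CPM in one 30d library and 4.39 CPM in the other.

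Ranked by p, the leading 10 genes with higher values at 3d also held 6 that did not pass, at edgeR adjusted p between 0.055 and 0.072. Beside Tsc22d3 they included Npy1r, a receptor of neuropeptide Y (0.43), Chrna7, a nicotinic receptor subunit (0.29), Ppp1r10, a nuclear regulator of protein phosphatase 1 (0.36), and Fam107a, a stress-responsive actin-associated gene (0.77). Fam107a had 29.4 and 28.3 CPM at 1d and 51.9 and 46.5 CPM at 3d, against 23.5 and 18.5 CPM at 0d. In each of the 6 both 3d libraries lay above both 1d libraries, against 19.3% of all genes tested.

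Genes of the sensory neurons themselves differed little. The 20 neuronal markers had a median log2 fold change of 0.01, the 27 sodium and TRP channels -0.03, and the 36 potassium, calcium and HCN channels 0.01, and no member of these lists passed. All 36 members of the last list lay within 0.25 of 0 on the log2 scale. Of 11 neuropeptides, Calca, the precursor of CGRP, had 867 and 931 CPM at 1d and 1036 and 1076 CPM at 3d, and a log2 fold change of 0.23 with a standard error of 0.05 (edgeR adjusted p = 0.107), and Tac1, the precursor of substance P, had 0.22 (edgeR adjusted p = 0.0768). Nerve injury genes lay slightly higher, with a median of 0.10 over 19 genes. Atf3, the classical injury factor, had a log2 fold change of -0.13, and Bdnf, a neurotrophin, had 42.5 and 42.8 CPM at 1d and 49.3 and 54.7 CPM at 3d (0.29, standard error 0.09). The immediate early genes had a median of 0.04 and the clock genes -0.01, with Per1 at 0.44, Per2 at 0.42, Nr1d1 at -0.42 and Dbp at -0.42, none of which passed.

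Small shifts of one sign ran through some large families without any member passing. In oxidative phosphorylation 27 of 29 genes and among cytosolic ribosomal proteins 37 of 39 had negative log2 fold changes, with a median of -0.07 in both. All these genes lay within 0.25 of 0. Over all genes tested, 50.5% had log2 fold changes below 0 and 49.5% above 0. Collagens and other matrix genes had a median of 0.10 with 24 of 27 above 0, led by Lox, which cross-links collagen, with 49.7 and 52.5 CPM at 1d and 72.4 and 74.4 CPM at 3d (0.52, standard error 0.23). Axon guidance genes had a median of 0.06 with 25 of 28 above 0, and Epha5, an ephrin receptor, had the largest value, 0.56 (edgeR adjusted p = 0.0773). Cell cycle genes had a median of -0.15 with 17 of 20 below 0. Members of one family are not independent, and no test was made of these lists.

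Markers of some other cell types had different summed levels at the 2 time points, and their part in the differences above was not tested. Over all genes tested, 49.5% had log2 fold changes above 0 and 50.5% below 0, and 19.3% had both 3d libraries above both 1d libraries. All 12 myelin genes of Schwann cells had log2 fold changes above 0, median 0.19, and both 3d libraries lay above both 1d libraries in 11. Their summed level was 8428 and 8448 CPM at 1d and 9822 and 9768 CPM at 3d, within the range of the 0d libraries (8593 and 11699 CPM). Of 13 neutrophil genes 12 had log2 fold changes above 0, with a median of 0.43 and summed levels of 138 and 147 CPM at 1d and 189.5 and 189 CPM at 3d, against 60.5 and 125 CPM at 0d. Of 10 red blood cell genes 9 had log2 fold changes below 0, with a median of -0.54 and summed levels of 332 and 334 CPM at 1d and 238 and 249.1 CPM at 3d, against 200.5 and 349 CPM at 0d. Hba-a1 and Hba-a2 hold identical values, and the same reads enter this sum for both. Skeletal muscle genes summed to 124 and 171 CPM at 1d and 168 and 166 CPM at 3d, against 306 and 195 CPM at 0d. None of these markers passed the test. In the 4 libraries fitted alone, 7 myelin genes and 7 neutrophil genes were called higher and 6 red blood cell genes lower. Over all 14948 genes tested, that fit called 139 higher and 118 lower. The red blood cell calls include both Hba-a1 and Hba-a2, which hold the same reads. The markers differed widely between the 2 libraries at 30d, with 297 and 127 CPM for neutrophils, 619 and 353 CPM for red blood cells and 6051 and 8499 CPM for myelin. Among central glia, Opalin, a marker of oligodendrocytes, had a count of 0 in all 8 libraries.

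The number of genes called depended on the setting. The genes that fell kept their direction in the settings tried. Where 1 library of 1d or 3d was left out, this followed from the 3d libraries lying below the 1d libraries. Of the 46 genes that fell with all 8 libraries in edgeR, those that also passed as lower numbered 45 with RLE size factors, 46 with library totals, 46 with DESeq2, 40 with limma-voom, 43 after thinning to equal depth, 35 without robust estimation and 34 among genes with a mean of at least 5 CPM. With the 1d and 3d libraries alone 45 of the 46 passed, and lower calls made up 45.9% of all calls in that fit, against 92.0% in the fit of all 8 libraries.

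**Figure D5:**
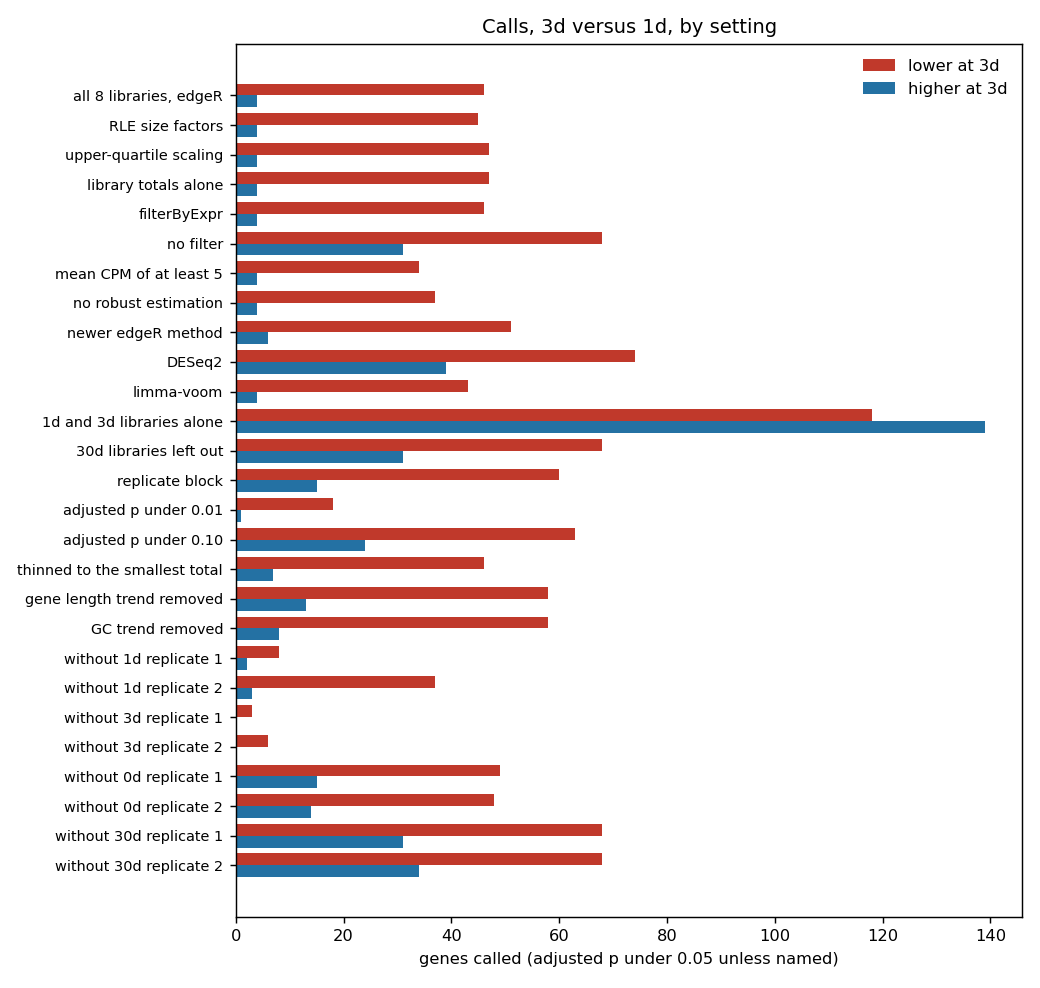
Number of genes called lower (red) and higher (blue) at 3d than at 1d under each setting, at an adjusted p under 0.05 unless the setting names another. The fit of all 8 libraries gives 46 and 4, the fit of the 1d and 3d libraries alone 118 and 139, and leaving out 3d replicate 1 gives 3 and 0.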

How the data were processed

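RNA of dorsal root ganglia was sequenced in 8 libraries, 2 at each of 0d, 1d, 3d and 30d. Reads were trimmed by the authors (cutadapt 2.10) and aligned to mm10 (STAR 2.7.5a), and the authors counted read pairs per gene with featureCounts 2.0.1, without regard to strand. A pair lying over more than one gene added to all of these, and multi-mapping reads were left out. The authors deposited the raw counts per gene in 1 table, and column names gave the sample of each column.

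Genes with at least 1 CPM in 2 or more libraries were kept, 14948 of 24421. The remaining genes held up to 0.109% of a library's counts. The counts, with TMM factors from 0.994 to 1.01, were fitted in edgeR 4.0.16 (R 4.3.3) with the robust quasi-likelihood method, all 8 libraries together and the time point as the only term. The contrast 3d minus 1d was adjusted after Benjamini-Hochberg and called under 0.05. The standard error of a log2 fold change was taken from its F statistic, as its size over the root of F. CPM values carry the TMM factors. The scripts were tested on simulated data.

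Totals between 44123208 and 73580338 counts make counting error small for most genes next to the differences between pools. With 2 libraries per group no exact permutation test can reach 0.05, and all p-values are from models across genes.

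The comparison, the 35 gene lists (23 classes and 12 sets of markers, with 637 of 696 genes tested) and the rule for naming genes were chosen with earlier results of these data known. The rule takes the 20 lower genes and the 10 higher genes with the smallest p, all called members of each list and the 2 members with the largest change among those with a mean of at least 5 CPM, the 5 called genes with the highest level, and called genes in no list. Other members of the lists are named as parts of a pathway, after their values were seen. Some results are not reported here.

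Promoters came from RefSeq (GRCm38.p6), which held 31 of the 46 genes that fell, and shared 50-base words were sought in GENCODE M21 transcripts. Alternatives were other scalings and filters, edgeR without robust estimation or with its newer method, DESeq2 1.42.0, limma 3.58.1 (voom), fits of fewer libraries, the replicate number as a block, other thresholds, thinning, length and GC trends, and each library left out.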

Additional observations from a re-analysis of the deposited data

How the results depend on the processing

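With all 8 libraries, 50 genes were called, 46 lower and 4 higher at 3d than at 1d. The 3 other scalings, edgeR's own filter, a mean CPM of at least 5, no robust estimation, edgeR's newer method and limma-voom gave 34 to 51 lower and 4 to 6 higher genes. Without a filter 99 genes were called, 68 lower and 31 higher; with DESeq2 113, 74 lower and 39 higher; with the 1d and 3d libraries alone 257, 118 lower and 139 higher; and with 30d left out 99, 68 lower and 31 higher. At an adjusted p under 0.01 there were 19 genes, 18 lower and 1 higher, and at 0.10 there were 87, 63 lower and 24 higher. Thinning gave 7 higher genes, removal of a length trend 13 and of a GC trend 8. The share of lower calls was 92.0% with all libraries, 68.7% without a filter, 65.5% with DESeq2, 45.9% with 4 libraries, 68.7% without 30d, 72.4% at 0.10, 80.0% with the replicate number as a block and 81.7% with the length trend removed; the causes were not tested. Leaving out each library in turn gave 3 to 102 genes, 3 to 68 lower and 0 to 34 higher. Where this left 1 library at 1d or 3d, that library was assumed to vary like the other groups.

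The deviations of same-numbered libraries had correlations between -0.0234 and 0.0867. Such values, from 2 libraries per time point, cannot decide whether the replicate numbers mark a pairing or a batch. With the replicate number as a block, 75 genes were called, 60 lower and 15 higher, an increase of over 1.5 times for the higher genes only.

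Of 3078 values for single genes and list medians under the alternatives, 2714 kept their direction and side of the threshold, 227 no longer passed, 131 newly passed, 5 moved and 1 turned its sign. That was Car3, an adipocyte marker, whose log2 fold change of -0.22 ranged from -0.44 to 0.057 with 1 library left out. The 2714 values include genes that passed neither with all 8 libraries nor under the alternative, and 275 list medians, which have no threshold. Only genes that passed with all 8 libraries could be among the 227.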
